A study of Gallus gallus with 12 samples.

Results

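The genes of 6 secreted Wnt ligands, WNT5A, WNT2B, WNT3A, WNT4, WNT11 and WNT6, were followed in single otocysts, the vesicles of the embryonic chicken that form the inner ear. They were chosen by name, with earlier results of these data known, as 6 of the 9 Wnt ligands whose levels the study tabulated. The study itself reported WNT2B as significantly changed in a dataset used here. Counts of the ligands are thus no independent comparison with all transcripts. Each ligand was represented by 1 of the 28756 transcripts in the deposited tables. In Wnt LOF EP 24 h, 3 White Leghorn embryos (50, 51 and 52) were electroporated in the right otic placode at embryonic day 2 with DNBCAT, a dominant-negative β-catenin without its N and C termini that is linked to mCherry and an HA tag. In Control EP, 3 embryos (60, 61 and 62) received mCherry alone on the right. The left otocysts of all 6 embryos were not transfected, and both otocysts of every embryo were collected 24 h later, cleaned of mesenchyme and sequenced singly. Electroporation reached only some of the cells of a right otocyst, so each right value is an average over transfected and untransfected cells.

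Wnt proteins bind Frizzled receptors. In the canonical branch this stabilises β-catenin, which enters the nucleus and switches on targets with TCF and LEF factors, while other branches act on cell polarity and movement without β-catenin. In the inner ear, Wnt signals from the hindbrain and the dorsal otocyst are known to pattern its dorsal side and its vestibular parts.

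Libraries held between 13157404 and 16097100 estimated counts (median 14801238). The right otocyst of embryo 51 stood apart from the others. Its 10 most abundant transcripts took 27.2% of all TPM (a level scaled for transcript length and library depth), against 7.40% to 8.90% in the other 11 otocysts, which leaves less of the fixed TPM total to all other transcripts. In TPM the median log2 fold change of all transcripts in Wnt LOF EP 24 h was -0.23 (limma on log2(TPM + 1)), against -0.02 in CPM (edgeR). Right-left comparisons are therefore given mainly in CPM, counts scaled to a library size corrected by TMM, whose factor was 0.772 in that library and 0.981 to 1.07 in the others. TPM is used to compare ligands with each other. No otic epithelium, mesenchyme or neuroblast marker on the lists used was at 0 counts in any otocyst. The otic epithelium and neuroblast markers were identified by name in the study's tables, mostly lists of genes that differed in an experiment. So were the mesenchyme markers other than ENG, NT5E and THY1. These markers were thus partly chosen by such results. The summed CPM of the 6 otic epithelium markers was 708 to 1233 in right and 984 to 1236 in left DNBCAT otocysts, with the lowest value in the right otocyst of embryo 51, and 1092 to 1233 in right and 1210 to 1256 in left mCherry otocysts. Taken singly, 5 of these 6 markers had a log2 fold change below 0 in Wnt LOF EP 24 h, against 52.3% of all transcripts. In Control EP all 6 did, against 50%. The lowest was CDH1 in Wnt LOF EP 24 h, at -0.67 ± 0.19 (SE, unadjusted p = 0.0199, edgeR), against -0.06 ± 0.07 in Control EP. The 10 mesenchyme markers summed to 710 to 1098 in right and 653 to 974 in left DNBCAT otocysts, and to 790 to 881 in right and 724 to 851 in left mCherry otocysts. In embryos 50, 51 and 52 the log2 right-left ratio of this sum was -0.46, 0.31 and 0.52. It was -0.11, 0.02 and 0.28 in embryos 60, 61 and 62. Taken singly, 6 of the 10 mesenchyme markers had a log2 fold change below 0 in Wnt LOF EP 24 h and 3 in Control EP. None of these 10 had an unadjusted p under 0.05 in either dataset (edgeR). The otic epithelium sum had ratios of 0.17, -0.48 and -0.23 in embryos 50, 51 and 52. In embryos 60, 61 and 62 these were 0.007, -0.02 and -0.20. The part of such shifts in the ligand ratios was not tested.

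Taken as a group, the ligands were less abundant in the DNBCAT-transfected otocysts. The summed CPM of the 6 ligands was 67.7, 62.1 and 65.2 in the right otocysts of embryos 50, 51 and 52, against 116, 112 and 112 in their left otocysts. In Control EP it was 105, 108 and 99.8 on the right of embryos 60, 61 and 62, against 109, 121 and 119 on the left. The 3 DNBCAT right otocysts lay below all 9 others, and the sum is carried mostly by WNT5A and WNT2B. How often other sets of transcripts separate in this way is not given. In whole otocysts, fewer cells that express a ligand and less RNA per cell cannot be told apart.

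The level of the ligands followed nearly the same order in every otocyst. This order leaves out WNT9A, WNT5B and WNT7B, whose ranges overlapped that of WNT4. They had 4.26 to 12.2, 4.38 to 9.23 and 1.84 to 9.45 TPM over the 12 otocysts. WNT5A, known mainly for signalling without β-catenin, had a median of 46.2 TPM over the 12 otocysts (17.4 to 55.3). WNT2B, which acts mostly through β-catenin and is known from the eye and the dorsal neural tube, had a median of 35.4 TPM (8.50 to 43.2). WNT3A, a canonical ligand of the dorsal neural tube and tail bud, had a median of 14.4 TPM (6.65 to 28.96). WNT4, best known from kidney and gonad development, had a median of 5.82 TPM (1.20 to 9.86), WNT11, a ligand of convergent extension movements, 3.52 TPM (1.45 to 5.08) and WNT6, known from surface ectoderm, 1.03 TPM (0 to 4.58). The ranges of neighbours in this order overlapped between otocysts, but within an otocyst the order was kept with few exceptions. WNT5A was above WNT2B in 11 of 12 otocysts, the exception being the left otocyst of embryo 62 with a WNT5A level 0.949 times that of WNT2B. WNT2B was above WNT3A, WNT3A above WNT4 and WNT11 above WNT6 in 12 of 12, and WNT4 was above WNT11 in 11 of 12, the exception being the right otocyst of embryo 51.

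**Figure D1:**
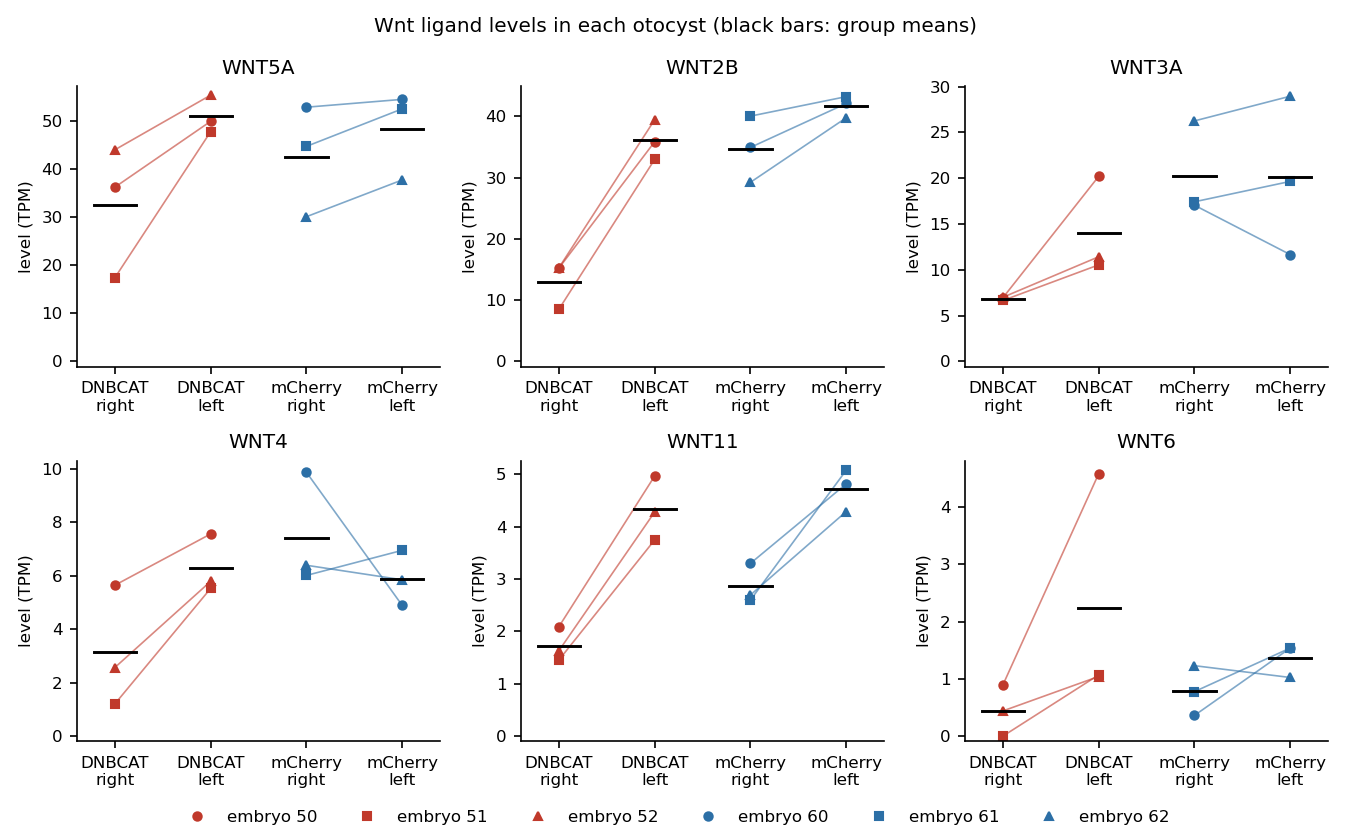
Level of each Wnt ligand in TPM (vertical axes, linear) in the right and left otocysts of the DNBCAT and mCherry embryos. Points are otocysts, lines join the 2 otocysts of an embryo and black bars are group means (n = 3). The 3 DNBCAT right otocysts have the lowest WNT2B levels, 8.50 to 15.3 TPM. WNT5A, WNT2B and WNT11 each have their lower value on the right in 6 of 6 embryos.

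Relative abundance, the share of a ligand in the summed TPM of the 6, does not depend on how a library is scaled. WNT5A and WNT2B together made up 61.8% to 83.6% of the sum in the 12 otocysts. WNT5A made up 54.1%, 49.4% and 62.1% in the right otocysts of embryos 50, 51 and 52, against 40.6%, 47.01% and 47.2% in their left otocysts. In Control EP the WNT5A share was 44.7%, 40.1% and 31.4% in the right otocysts of embryos 60, 61 and 62, against 45.6%, 40.7% and 32.1% in the left. All 3 DNBCAT right otocysts were thus above the other 9 in the share of WNT5A.

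The WNT2B share was 22.7%, 24.2% and 21.5% in the DNBCAT right otocysts, against 29.1%, 32.4% and 33.6% in the DNBCAT left otocysts. It was 29.5%, 35.9% and 30.5% in the mCherry right otocysts, against 35.2%, 33.5% and 33.8% in the mCherry left otocysts. The DNBCAT right otocysts were below the other 9. The right-minus-left difference averaged 10.2 ± 6.85 percentage points in DNBCAT and -0.76 ± 0.16 in mCherry embryos for WNT5A (SD, n = 3 each), and -8.92 ± 2.89 in DNBCAT and -2.23 ± 4.16 in mCherry embryos for WNT2B. An exact two-sided permutation test of each difference between datasets gave p = 0.1, which is the smallest that 3 against 3 embryos allow. The shares of WNT3A, WNT4, WNT11 and WNT6 gave exact permutation p-values of 0.7, 0.3, 0.5 and 0.4.

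**Figure D2:**
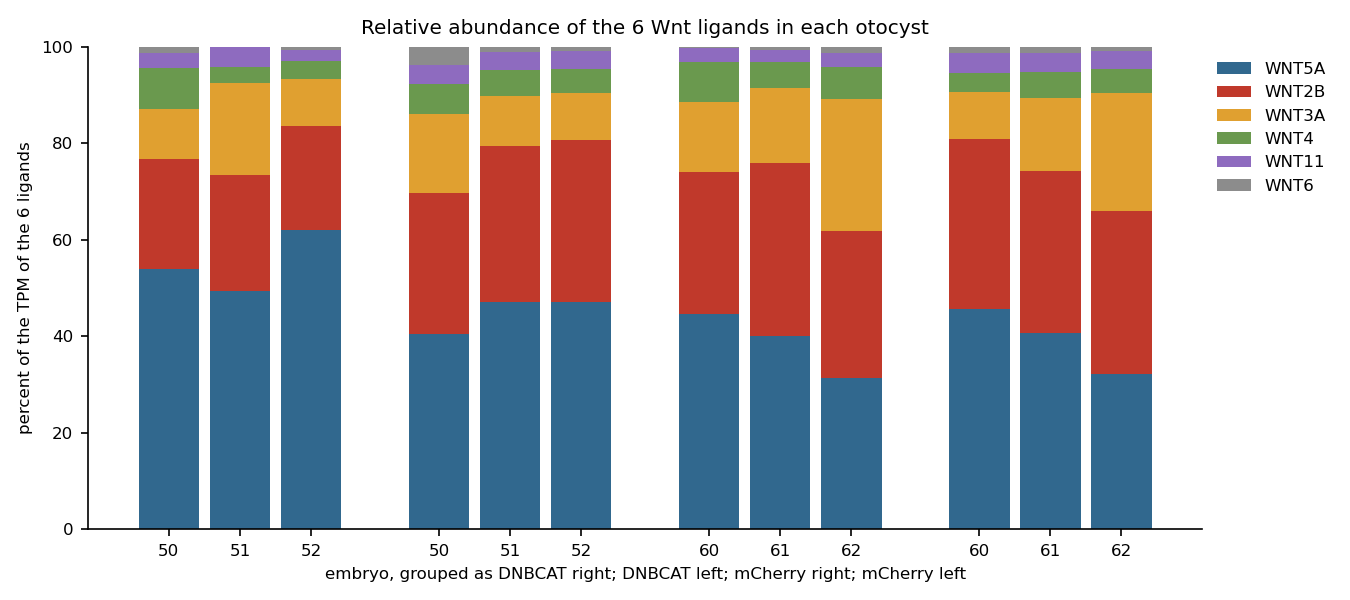
Share of each ligand in the summed TPM of the 6 ligands (vertical axis, percent), 1 stacked bar per otocyst, grouped as DNBCAT right, DNBCAT left, mCherry right and mCherry left. WNT5A takes 49.4% to 62.1% of the bar in DNBCAT right otocysts and no more than 47.2% elsewhere.

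The quotient of the WNT2B and WNT5A shares, added after the data were seen, restates them as the WNT2B level relative to WNT5A in the same otocyst. The WNT2B level was 0.420, 0.489 and 0.347 times the WNT5A level in the right otocysts of embryos 50, 51 and 52, against 0.718, 0.690 and 0.712 times in their left otocysts. In Control EP it was 0.661, 0.895 and 0.971 times on the right of embryos 60, 61 and 62, against 0.773, 0.823 and 1.05 times on the left. The 3 DNBCAT right otocysts were below the other 9, which began at 0.661, as the shares already fix, and embryo 51 had the highest of the 3. The log2 right-left ratio of this quantity averaged -0.77 in DNBCAT and -0.07 in mCherry embryos. For WNT3A over WNT5A the DNBCAT right otocysts, at 0.159 to 0.383, overlapped the others, at 0.206 to 0.873 (exact permutation p = 0.5, n = 3 embryos each). They overlapped the others for WNT4 and WNT11 over WNT5A as well. For WNT4 the log2 right-left ratio of the quotient averaged -0.51 in DNBCAT and 0.51 in mCherry embryos (exact permutation p = 0.2). For WNT11 it averaged -0.59 in DNBCAT and -0.53 in mCherry embryos (exact permutation p = 0.9).

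**Figure D3:**
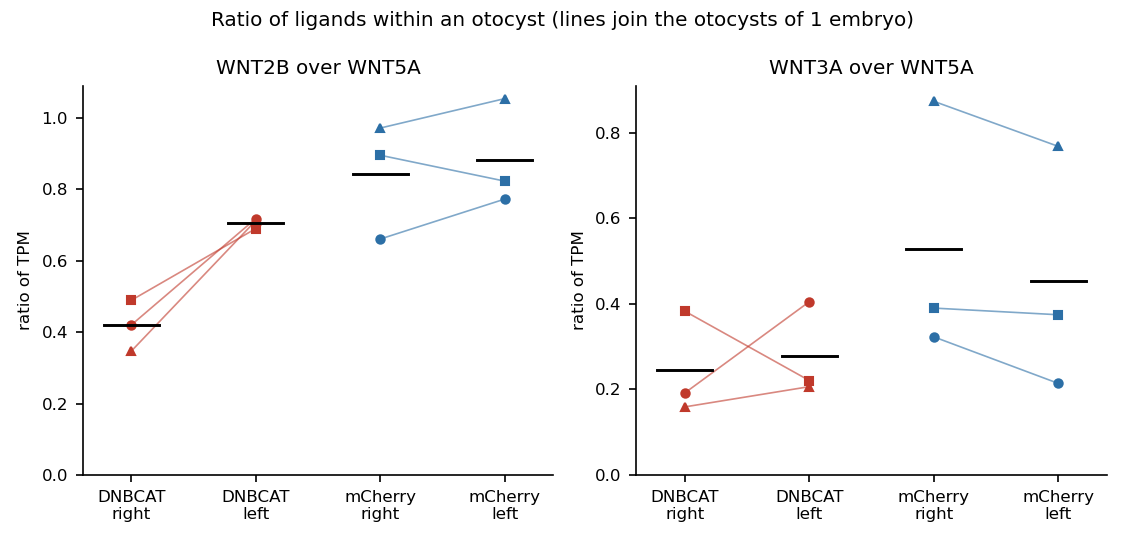
Level of WNT2B and of WNT3A divided by that of WNT5A in the same otocyst (vertical axes, ratio of TPM). Points are otocysts, lines join the otocysts of 1 embryo, black bars are group means (n = 3); for WNT2B the DNBCAT right otocysts, at 0.347 to 0.489, lie apart from the other 9, and for WNT3A they do not.

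The right-left comparison within Wnt LOF EP 24 h asks what DNBCAT transfection goes along with. In CPM, 5 of the 6 ligands were lower on the right in all 3 embryos, as were 17.2% of the 19408 transcripts tested. WNT3A was the exception, but in TPM, or in CPM of the uncorrected total, its right value was the lower one in 3 of 3 embryos. In TPM, however, all transcripts had a median log2 fold change of -0.23 (limma on log2(TPM + 1)). No share over all transcripts is given for either of these scales. In 4 of the 6 (WNT5A, WNT2B, WNT11 and WNT6), every right otocyst was below every left otocyst, against 5.16% of all transcripts. Without embryo 50, 51 or 52 it was 5 of 6 each time, and with only 2 embryos 13.1%, 15.5% and 17.3% of transcripts met this. For WNT6 the separation over all 3 embryos was narrow and at the edge of detection. Its highest right value was 0.740 CPM (11 counts, embryo 50) and its lowest left value 0.783 CPM (12 counts, embryo 52). At an unadjusted p under 0.05 there were 3 of 6 ligands, all lower (WNT5A, WNT2B and WNT11), against 2.74% of transcripts lower at that level. That count was 2 without embryo 50 (WNT2B and WNT4), 4 without embryo 51 (WNT5A, WNT2B, WNT3A and WNT11) and 2 without embryo 52 (WNT5A and WNT2B), so WNT2B was in it each time. Among all transcripts, 350 of 19635 were lower at that level without embryo 50, 394 of 19904 without embryo 51 and 699 of 19516 without embryo 52. After Benjamini-Hochberg adjustment over all transcripts, edgeR's quasi-likelihood test, blocked by embryo, called 0 of 19408 (0%), so none of the ligands passed (adjusted p = 0.718 for each). Before adjustment 1204 transcripts had p under 0.05, and DESeq2's Wald test called 453. edgeR's p-values set the right-left difference against its spread over these embryos, estimated with information shared between transcripts.

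In Control EP, 3 of the 6 ligands (WNT5A, WNT2B and WNT11) were lower on the right in all 3 embryos, against 13.5% of 19754 transcripts, and 2 of 6 had an unadjusted p under 0.05 and were lower (WNT2B and WNT11), against 1.75%. That count was 0 without embryo 60, 1 without embryo 61 and 0 without embryo 62. Among all transcripts, 390 of 19916, 355 of 20101 and 352 of 20086 were lower at that level without embryo 60, 61 and 62. Only WNT11 had every right otocyst below every left one, against 2.72% of transcripts, with 2, 2 and 3 ligands, and 12.7%, 10.0% and 11.5% of transcripts, when embryo 60, 61 or 62 was left out. None of the 19754 transcripts was called by edgeR (0%), with 740 at an unadjusted p under 0.05 and 84 called by DESeq2's Wald test. The median log2 fold change of the 6 ligands was -1.005 in Wnt LOF EP 24 h and -0.19 in Control EP, while that of all transcripts was -0.02 in Wnt LOF EP 24 h and 8.07e-05 in Control EP.

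The difference between the 2 datasets was tested as an interaction over all 12 otocysts. edgeR called 0 of 19298 transcripts (0%), with 842 at an unadjusted p under 0.05 and 64 called by DESeq2's Wald test. All 6 ligands had a lower right-left ratio in Wnt LOF EP 24 h than in Control EP. The median log2 difference was -0.90 for the 6 ligands and -0.006 for all transcripts. Of the ligands 2, WNT2B and WNT4, had an unadjusted p under 0.05, against 2.21% of transcripts lower at that level. WNT2B remained at that level without any single embryo, and WNT4 did not without embryo 51, 52, 60 or 62.

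**Figure D4:**
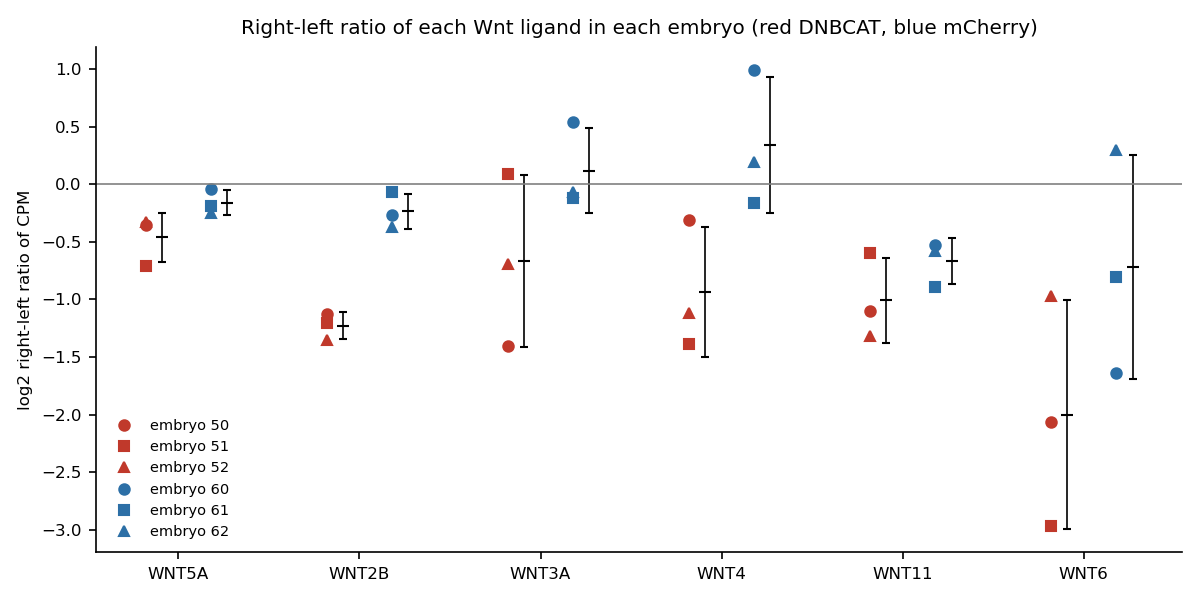
Log2 of the right-left ratio of CPM, with a prior count of 2 (vertical axis), of each ligand in the 3 DNBCAT embryos (left of each pair) and the 3 mCherry embryos. Black marks are means with SD (n = 3); WNT2B lies between -1.35 and -1.13 in DNBCAT and between -0.37 and -0.07 in mCherry embryos, while WNT6 spans from -2.96 to 0.29 over all embryos.

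In CPM, WNT2B had the narrowest spread of right-left ratios among the ligands in DNBCAT embryos, and in TPM WNT11 did. The WNT2B CPM was 19.98, 19.7 and 18.3 in the right otocysts of embryos 50, 51 and 52, against 43.8, 45.6 and 46.96 in their left otocysts. In Control EP it was 39.6, 48.8 and 40.3 in the right otocysts of embryos 60, 61 and 62, against 47.6, 51.2 and 52.1 in the left. The DNBCAT right otocysts had 0.390 to 0.457 times the CPM of their left partners, and no other otocyst came within their range. No share of all transcripts that separate these otocysts from all others is given.

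The log2 fold change of WNT2B was -1.23 ± 0.11 (SE) in Wnt LOF EP 24 h, the third smallest p of 19408 transcripts (unadjusted p = 0.000214), and -0.23 ± 0.08 in Control EP (unadjusted p = 0.0373, edgeR). The difference was -0.997 ± 0.12 (unadjusted p = 0.000155, adjusted p = 0.670, edgeR with Benjamini-Hochberg adjustment), again the third smallest of 19298. DESeq2's Wald test gave WNT2B an adjusted p of 9.55e-15 in Wnt LOF EP 24 h and of 2.15e-06 for the difference. The exact permutation p of the ratios, with n = 3 embryos each, was 0.1. The summed CPM of 3 neuroblast markers (NEUROD1, NHLH1 and DLL1) was also lower on the right in each DNBCAT embryo, at 84.7, 81.7 and 103 in right otocysts, against 130, 112 and 113 in left otocysts, and its part in the WNT2B result was not tested. In mCherry embryos that sum was 108, 159 and 101 on the right, against 127, 148 and 145 on the left.

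WNT5A differed less between sides. Its CPM was 34.8, 29.5 and 38.5 in the right otocysts of embryos 50, 51 and 52, against 44.5, 48.3 and 48.2 in their left otocysts. In Control EP it was 43.9, 39.9 and 30.4 on the right of embryos 60, 61 and 62, against 45.1, 45.5 and 36.2 on the left. The right was lower in 6 of 6 embryos, and the mCherry groups overlapped. The log2 fold change of WNT5A was -0.46 ± 0.13 (SE) in Wnt LOF EP 24 h (unadjusted p = 0.0190) and -0.16 ± 0.07 in Control EP (unadjusted p = 0.0789, edgeR). The difference, -0.30 ± 0.14, had an unadjusted p of 0.0718, and it was -0.18 without embryo 51. The right-left ratios of the 2 datasets did not overlap for WNT5A (exact permutation p = 0.1, n = 3 each). Any such separation of 3 against 3 embryos gives this p, and no share of all transcripts that met it is given. The widest DNBCAT ratio of WNT5A was that of embryo 51, whose right otocyst had 0.611 times the CPM of its left.

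WNT11 was lower on the right whether the construct was DNBCAT or mCherry. Every right otocyst was electroporated and no left one was. Body side, electroporation and expression of a construct thus cannot be told apart in what the right-left comparisons of both datasets share. Its CPM was 2.42, 2.97 and 1.72 in the right otocysts of embryos 50, 51 and 52, against 5.36, 4.58 and 4.50 in their left otocysts. It was 3.31, 2.80 and 3.28 in the right otocysts of embryos 60, 61 and 62, against 4.81, 5.32 and 4.97 in the left. All 6 right otocysts lay below all 6 left otocysts, which held for 0.13% of the 19298 transcripts tested over the 6 embryos and for no other ligand here. The log2 fold change of WNT11 was -1.04 ± 0.33 (SE, unadjusted p = 0.0296, edgeR) in Wnt LOF EP 24 h, -0.68 ± 0.24 (unadjusted p = 0.0453) in Control EP and -0.87 ± 0.19 (unadjusted p = 0.00215) over all 6 embryos. The difference between datasets, -0.36 ± 0.37, was smaller than its error (unadjusted p = 0.367, exact permutation p of the ratios 0.2, n = 3 each), with -0.57 without embryo 51 and -0.20 without embryo 52. In TPM the log2 ratios of WNT11 did not overlap, at -1.34 to -1.21 in DNBCAT and -0.94 to -0.53 in mCherry embryos (exact permutation p = 0.1, n = 3 each). On log2(TPM + 0.1), limma gave a difference of -0.58 (unadjusted p = 0.0397, adjusted p = 0.885). The median of all transcripts there was -0.24. These values rest on 26 to 82 estimated counts per otocyst.

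Over all 6 embryos, which join both constructs in a single right-left comparison, 3 of 6 ligands (WNT5A, WNT2B and WNT11) were lower on the right in every embryo, against 3.5% of transcripts. At an unadjusted p under 0.05 there were 4 of 6 ligands, all lower, against 4.48% of transcripts lower. edgeR called 0 of 19298 transcripts (0%), with 1779 at an unadjusted p under 0.05, and DESeq2's Wald test called 298. DESeq2 gave adjusted p-values of 0.0382 for WNT5A and 0.0121 for WNT2B, and none for WNT11.

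WNT4 was lower on the right in 3 of 3 DNBCAT embryos and in 1 of 3 mCherry embryos. Its CPM was 4.99, 1.88 and 2.06 in the right otocysts of embryos 50, 51 and 52, against 6.21, 5.14 and 4.64 in their left otocysts. It was 7.55, 4.94 and 5.94 in the right otocysts of embryos 60, 61 and 62, against 3.73, 5.54 and 5.18 in the left. The right otocyst of embryo 60 had the highest level of all 12, and the left and right ranges overlapped in both datasets. The right-left ratios of the 2 datasets did not overlap (exact permutation p = 0.1, n = 3 each, the value that any such separation gives). Fitted by edgeR, WNT4 had a log2 fold change of -0.97 ± 0.36 (SE, unadjusted p = 0.0515) in Wnt LOF EP 24 h and 0.35 ± 0.31 (unadjusted p = 0.323) in Control EP, and the difference was -1.32 ± 0.49 (unadjusted p = 0.0337, adjusted p = 0.935, edgeR with Benjamini-Hochberg adjustment). The Control EP value of WNT4 was 0.02 without embryo 60 and 0.61 without embryo 61.

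Among the 3 most abundant ligands, WNT3A had the widest range relative to its level in CPM, 4.33 to 19.8. Its CPM was 4.74, 8.03 and 4.33 in the right otocysts of embryos 50, 51 and 52, against 12.8, 7.55 and 7.07 in their left otocysts. It was 10.1, 11.1 and 18.9 in the right otocysts of embryos 60, 61 and 62, against 6.88, 12.1 and 19.8 in the left. Both otocysts of embryo 62 were high. Embryo 51 gave a right-left ratio of 1.06 in CPM and of 0.631 in TPM, so the direction of WNT3A there depends on the scaling. For WNT3A edgeR gave a log2 fold change of -0.68 ± 0.37 (SE, unadjusted p = 0.133) in Wnt LOF EP 24 h and 0.12 ± 0.19 (unadjusted p = 0.564) in Control EP. The Wnt LOF EP 24 h value was -0.30 without embryo 50 and -1.07 without embryo 51 (unadjusted p = 0.492 without embryo 50 and 0.0377 without embryo 51). The Control EP value was -0.09 without embryo 60. The difference was -0.80 ± 0.44 (unadjusted p = 0.117), with -0.42 without embryo 50 and -1.20 without embryo 51, and the ratios overlapped (exact permutation p = 0.3, n = 3 each). In TPM they did not overlap (exact permutation p = 0.1, n = 3 each).

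WNT6 was at the edge of detection. It had 11, 0 and 5 estimated counts in the right otocysts of embryos 50, 51 and 52, against 54, 12 and 12 in their left otocysts. It had 4, 9 and 17 estimated counts in the right otocysts of embryos 60, 61 and 62, against 16, 16 and 13 in the left. The 54 counts in the left otocyst of embryo 50 stood apart from all others. With a limit of 3 counts in place of 0, the right otocyst of embryo 51 had at least 3.65-fold lower CPM of WNT6 than the left. edgeR gave -2.48 ± 1.06 (log2, SE, unadjusted p = 0.0735) in Wnt LOF EP 24 h and -0.85 ± 0.73 (unadjusted p = 0.309) in Control EP, and the difference of -1.63 ± 1.29 was within the spread (unadjusted p = 0.253, exact permutation p of the ratios 0.2, n = 3 each). The difference was -0.92 without embryo 51 and -0.996 without embryo 62, and the Control EP value was -0.29 without embryo 60 and -1.47 without embryo 62.

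The untransfected left otocysts give the levels of the ligands without a construct. When the left sides of Wnt LOF EP 24 h embryos were set against those of Control EP embryos, edgeR called 0 of 19647 transcripts (0%), and DESeq2's Wald test 43. None of the 6 ligands had an unadjusted p under 0.05, against 2.31% of transcripts (454). Their log2 fold changes lay between -0.51 for WNT3A and 0.75 for WNT6, with standard errors of 0.44 for WNT3A and 0.69 for WNT6. Without embryo 62 the value for WNT3A was -0.064, without embryo 50 that for WNT6 was -0.28. For WNT2B it was -0.16 ± 0.10 (SE).

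Of 28 other pathway genes tested, 25 had a log2 fold change below 0 in Wnt LOF EP 24 h, against 52.3% of all transcripts, and 22 in Control EP, against 50% of all transcripts, with medians of -0.17 in Wnt LOF EP 24 h and -0.06 in Control EP. In Wnt LOF EP 24 h, 5 were lower and 0 higher at an unadjusted p under 0.05, against 2.74% of all transcripts lower at that level, and in Control EP 3 were lower and 0 higher, against 1.75% lower. SFRP1, SFRP2, NOTUM, APCDD1, SOSTDC1, CTNNB1 and GSK3B could be identified only through the study's lists of genes that differed in an experiment. The 28 genes were thus partly chosen by such results, and their counts are no independent comparison with all transcripts. The other 3 Wnt ligands, WNT5B, WNT7B and WNT9A, did not reach that level in either dataset, with log2 fold changes of -0.16, -0.49 and -0.06 in Wnt LOF EP 24 h and 0.12, -0.15 and 0.09 in Control EP. None of the 8 Frizzled receptors reached it in either dataset. FZD3 did over all 6 embryos, with a log2 fold change of -0.18 ± 0.07 (SE, unadjusted p = 0.0326, edgeR).

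AXIN2, a feedback inhibitor that β-catenin is known to induce, had 19.0, 15.9 and 27.7 CPM in the right otocysts of embryos 50, 51 and 52, against 35.5, 27.8 and 44.3 CPM in their left otocysts. In Control EP it had 47.4, 33.6 and 28.5 CPM on the right of embryos 60, 61 and 62, against 49.4, 36.4 and 38.2 CPM on the left. It was lower on the right in 6 of 6 embryos. Its log2 fold change was -0.79 ± 0.11 (SE, unadjusted p = 0.00163, edgeR) in Wnt LOF EP 24 h and -0.19 ± 0.09 (unadjusted p = 0.107) in Control EP, and the difference was -0.60 ± 0.14 (unadjusted p = 0.00496). After Benjamini-Hochberg adjustment edgeR gave 0.718 in Wnt LOF EP 24 h and 0.935 for the difference. The study itself reported AXIN2 as significantly changed in Wnt LOF EP 24 h. The values here come from the same embryos and are no independent support.

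Among the other genes, SFRP1 encodes a secreted antagonist that binds Wnt proteins. Its log2 fold change was -0.51 ± 0.10 (SE, unadjusted p = 0.00648, edgeR) in Wnt LOF EP 24 h. In Control EP it was -0.02 ± 0.19 (unadjusted p = 0.933, edgeR), but the embryos differed. The log2 right-left ratios of SFRP1 were -0.72, -0.49 and -0.33 in embryos 50, 51 and 52. They were -0.16, -0.40 and 0.51 in embryos 60, 61 and 62, so that of embryo 61 lay within the DNBCAT range. The left otocyst of embryo 62 had 88.9 CPM, against 131 to 163 in the other left otocysts. LGR4 and LGR5, receptors for R-spondins, which strengthen Wnt signals, and APCDD1, a membrane-bound inhibitor, were at an unadjusted p under 0.05 in both datasets and lower on the right in both. For LGR5 the log2 fold change was -0.71 ± 0.22 (SE) in Wnt LOF EP 24 h and -0.24 ± 0.05 in Control EP, for LGR4 -0.45 ± 0.15 in Wnt LOF EP 24 h and -0.11 ± 0.04 in Control EP, and for APCDD1 -0.78 ± 0.23 in Wnt LOF EP 24 h and -0.24 ± 0.06 in Control EP. The difference between datasets had an unadjusted p over 0.05 for SFRP1, LGR4, LGR5 and APCDD1 (0.0886, 0.0789, 0.0952 and 0.0821, edgeR). CTNNB1, which encodes β-catenin, had a log2 fold change of -0.12 ± 0.12 (SE) in Wnt LOF EP 24 h and -0.03 ± 0.03 in Control EP, and whether reads of the construct add to it was not tested.

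**Figure D5:**
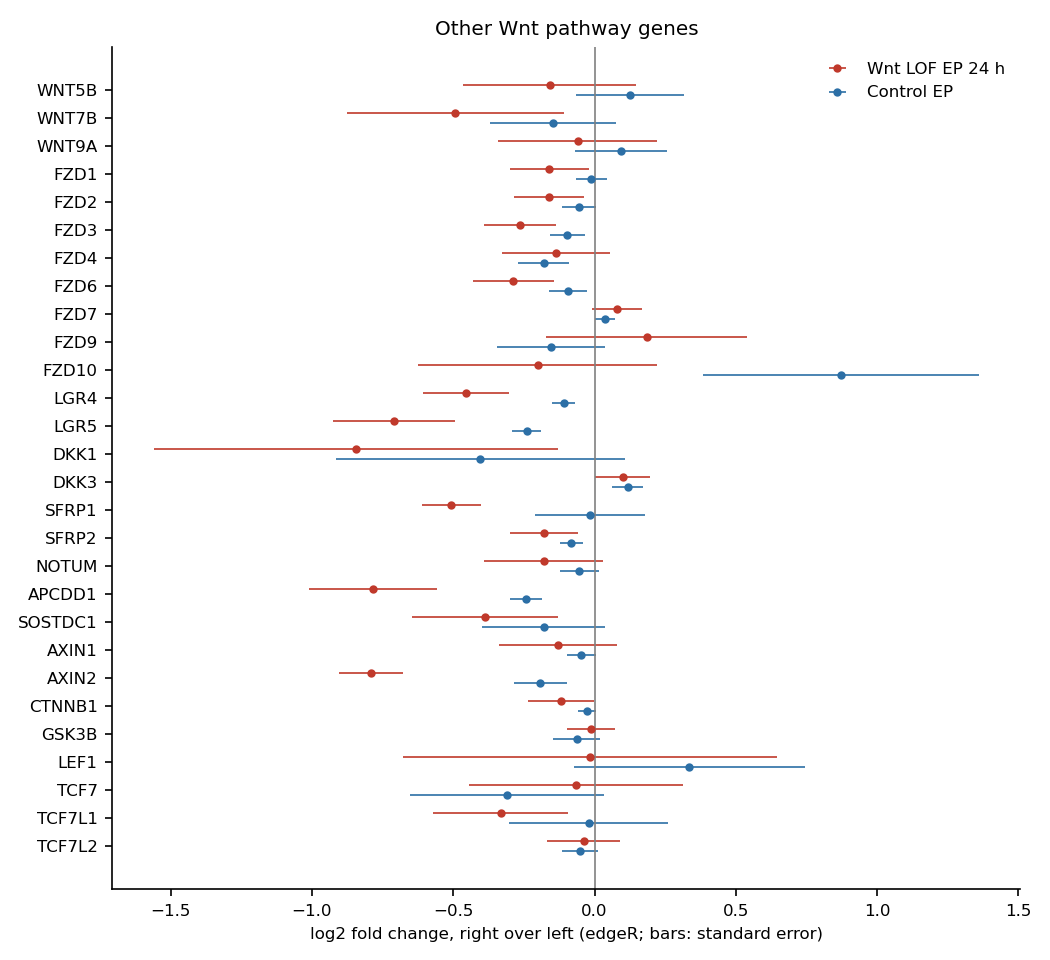
Log2 fold change, right over left (horizontal axis, edgeR, bars are standard errors), of 28 other Wnt pathway genes in Wnt LOF EP 24 h (red, upper) and Control EP (blue, lower). DKK1, at -0.84 ± 0.72 in Wnt LOF EP 24 h and -0.40 ± 0.51 in Control EP, is the lowest and has wide bars. AXIN2 at -0.79, APCDD1 at -0.78 and LGR5 at -0.71 lie farther below 0 in Wnt LOF EP 24 h than in Control EP. FZD10, at 0.87 in Control EP, is the highest and has a wide bar.

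The transcripts whose levels ran most alike to each ligand were sought among 810 others with a gene name, taken from the study's tables, most of them lists of genes that differed in one of its experiments. Likeness is Spearman's rho over the 12 otocysts, which share embryos, libraries and the side. Some of these lists came from the DNBCAT embryos used here, where the study also called WNT2B. A high rho is thus partly fixed by how the candidates were chosen. The 2 transcripts named for each ligand are the highest of 810, which by itself favours large values. WNT2B was most like SEMA6D (rho 0.92) and NEUROD1 (0.90), WNT5A most like ALCAM (0.90) and SDC4 (0.88), and WNT3A most like CA10 and AOAH (0.83 each). WNT4 was most like MSX1 (0.84) and MFSD13A (0.81), WNT11 most like UXS1 (0.92) and MSX2 (0.90), and WNT6 most like UXS1 (0.86) and CAPN2 (0.77). Without the right otocyst of embryo 51 these values lay between 0.72 for WNT6 with CAPN2 and 0.93 for WNT2B with SEMA6D and WNT3A with AOAH. Among the ligands themselves, WNT11 and WNT6 were the most alike (rho 0.77), and WNT5A and WNT3A the least (rho -0.15). By Pearson's r of log2 CPM, WNT2B and WNT11 were the most alike (0.81), with 0.58 for WNT11 and WNT6. WNT5A and WNT3A were again the least (-0.17). For WNT6 and UXS1 Pearson's r was 0.62, and WNT6 was at the edge of detection.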

How the data were processed

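RNA from 12 single otocysts of 6 embryos was made into SMART-Seq v4 and Nextera XT libraries and sequenced as paired ends. The authors quantified the reads with Kallisto (bcl2fastq and the GRCg6a build are also in the submitters' processing notes) and deposited, per transcript, estimated counts, which are not normalized and share reads between transcripts, and TPM. No molecular identifiers were used, so precision from counts covers counting error only.

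The tables hold transcript identifiers without gene names. Each ligand was matched to the 1 transcript whose deposited TPM values equal, in sample order, the column of that gene in the study's supplementary table. Other transcripts of a gene are not included.

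Estimated counts were rounded and tested in R 4.3.3 by edgeR 4.0.16 (quasi-likelihood test, TMM, embryo as a block, at least 5 counts in at least 47% of libraries, Benjamini-Hochberg adjustment). The pairing comes from the embryo, and right and left deviations from group means correlated with r of 0.0940 to 0.338 in the 6 embryos. Ratios used a prior count of 2, a count of 0 a limit of 3 counts, and exact permutation tests scipy 1.17.1. Alternatives used DESeq2 1.42.0 and limma 3.58.1. The tests were also run on simulated counts that held no differences between embryos. These counts do not match the paired data, so no conclusion is drawn from them.

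The ligands and lists were chosen with earlier results of these data known. All 6 ligands are named, with AXIN2, CTNNB1, pathway genes at an unadjusted p under 0.05 and the 2 most alike transcripts of each ligand. WNT5B, WNT7B, WNT9A, FZD10, DKK1 and CDH1 were named after their values were seen.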

Additional observations from a re-analysis of the deposited data

How the results depend on the processing

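No ligand passed the adjusted threshold under any alternative to edgeR's test other than DESeq2's Wald test, which called WNT2B in Wnt LOF EP 24 h (log2 fold change -1.21), in the difference of the datasets (-0.99) and over all 6 embryos (-0.72), and WNT5A over all 6 embryos (-0.30). That test called 453 transcripts in Wnt LOF EP 24 h, 84 in Control EP, 64 for the difference, 298 over all 6 embryos and 43 between left otocysts, each against 0 with edgeR. A minimum of 10 counts in every library gave 1 call in Wnt LOF EP 24 h. limma on log2(TPM + 1) gave 1 call for the difference and 1 between left otocysts, and on log2(TPM + 0.1) 1 and 22. The log2 fold change of WNT2B in Wnt LOF EP 24 h stayed between -1.51 and -1.18 over 12 alternatives, with adjusted p from 9.55e-15 to 0.970. Without the replicate block it was -1.23 (adjusted p = 0.692, edgeR), and with all 12 libraries in one fit -1.23 (adjusted p = 0.0792). Neither choice of block changed a call of a ligand. Leaving out 1 embryo left 0 calls in every comparison. Among the ligands' fold changes, direction turned only without embryo 60, for WNT3A in Control EP (-0.089 to 0.23 over the embryos left out) and WNT4 between left otocysts (-0.016 to 0.25), and without embryo 50, for WNT6 between left otocysts (-0.28 to 1.10). The count of ligands lower on the right in all DNBCAT embryos was 6 in TPM, 6 in CPM of the library total and 6 without embryo 51, the last added after seeing the data. Without embryo 51, 26.9% of transcripts were lower on the right in each remaining DNBCAT embryo. No such share is given for TPM or for CPM of the library total. The median share of WNT2B was 31.5% of the TPM of the 6 ligands, 40.5% in counts not divided by length and 25.7% over 9 Wnt ligands. The number of transcripts at an unadjusted p under 0.05 in Wnt LOF EP 24 h was 1204, but 608 without embryo 50, 470 without the block and 2463 with all 12 libraries in one fit. For the difference it was 842, but 1699 without embryo 52, 533 without embryo 60 and 342 without the block. Over all 6 embryos it was 1779, but 1069 without embryo 50 and 421 without the block. In Control EP it was 740, but 233 without the block and 406 with all libraries. Between left otocysts it was 454, but 692 with no filter, 760 with limma on log2(TPM + 1) and 724 on log2(TPM + 0.1). DESeq2's Wald test gave 2527 in Wnt LOF EP 24 h, 1231 in Control EP, 1391 for the difference and 2806 over all 6 embryos. The causes were not tested. With 3 embryos a group, exact tests cannot go below 0.1, and WNT6 is limited by its low counts.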
